A study of Homo sapiens with 4 samples.

Results

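The genes described here encode Mediator, TFIID and the general initiation factors of RNA polymerase II (Pol II), together with the TBP-associated factors of other complexes. They were taken by gene symbol, as numbered MED, TAF and GTF2 genes with TBP, CDK7, MNAT1, CDK8, CDK19 and CCNC. The rule left out MED26 and GTF2H1, and 61 of the 10147 genes in the table met it. RNA synthesis was measured by TT-seq, in which a pulse of 500 µM 4-thiouridine (4sU) for 5 min labels new RNA, the labelled RNA is isolated after fragmentation, and synthetic spike-ins set the scale. The cells were K562, a human chronic myelogenous leukemia line, edited so that the endogenous IWS1 gene makes the protein with a dTAG degradation tag at its N-terminus. The 2 dIWS1 samples received 500 nM dTAG7, the ligand that sends the tagged protein to degradation, for 1 h, and the 2 control samples received the DMSO solvent for the same time. All 4 carried the tag, so the comparison is of ligand against solvent within 1 edited line. The samples were labelled as biological duplicates.

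The table gives 1 mean per gene over the libraries, and the whole reads behind that mean could be recovered for each column. The control entered it as 2 identical columns, which were counted as 1 sample, beside 2 different dIWS1 columns, named column 1 and column 2 here because nothing ties them to a labelled replicate. Reads in genes came to 29697189 for the control, 20599922 for column 1 and 20807156 for column 2, with spike-in size factors of 1.01, 0.993 and 0.919. The spread between replicates was therefore known from the dIWS1 pair alone, and the control was assumed to vary like it. IWS1 itself had 3684, 2334 and 2427 reads in these columns, which says nothing of the tagged protein, because the ligand acts on protein. The 5 erythroid marker genes reported here (GATA1, HBG1, HBG2, TAL1 and KLF1) were all in the table with 3858, 2705 and 2572 reads in sum, and none of 5 markers of other cell types was listed. In a bulk culture, fewer cells and less RNA per cell cannot be told apart.

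Transcription by Pol II starts when the general factors TFIIA, TFIIB, TFIID, TFIIE, TFIIF and TFIIH gather with the polymerase at a promoter. TFIID, made of the TATA-binding protein TBP and its TAF partners, recognises the core promoter, TFIIB positions the polymerase, and TFIIH opens the DNA and phosphorylates the polymerase tail. Mediator, with head, middle and tail modules on the scaffold MED14 and a detachable kinase module, carries signals from enhancer-bound activators to this assembly. IWS1, by contrast, is a factor of the elongation stage. The question for these genes is how the synthesis of the RNAs that encode the initiation machinery changed when IWS1 was depleted.

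In dIWS1, 40 of the 61 genes fell and none rose (limma voom across all genes, Benjamini-Hochberg adjusted p under 0.05, spike-in scaling). Of all 9916 genes tested, 65.6% were called lower and 0.101% higher by the same rule, so the share of initiation factor genes called lower was that of the whole table. No gene was higher at an unadjusted p under 0.05 either, and 0 were higher by limma trend. The direction rests on the spike-ins, since scaling by total reads in genes gave 7 lower and 15 higher genes. Shares of all genes under that scaling were not computed, so these counts cannot be set against the whole table. The median log2 fold change (dIWS1/control) of the 61 was -0.39, beside -0.42 over all genes tested. In column 1 every one of the 61 lay below the control, with a median log2 ratio of -0.48, and in column 2 there were 56, with a median of -0.30. Column 1 was the lower of the 2 for 51 of the 61 genes. Among the called genes, MED18 fell the most, where normalized reads fell by 46.4% (log2 fold change -0.90), and MED6 the least, where they fell by 18.2% (-0.29). The 21 genes not called had a median of 1476 control reads, against 1690.5 for the called ones. Of these 21, 19 had a fold change below 0, and 2, TAF13 and CDK7, above it.

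**Figure D1:**
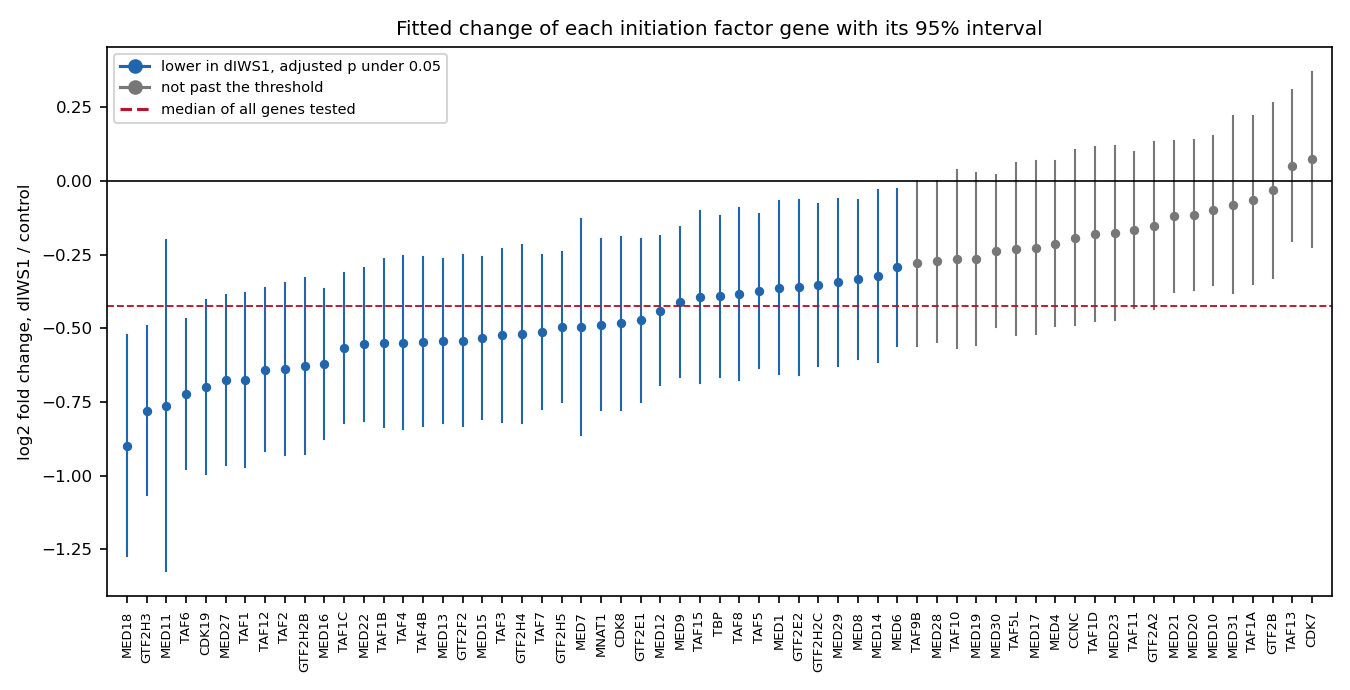
Fitted log2 fold change (dIWS1/control, y axis) of each of the 61 genes, ordered from lowest to highest, with its 95% interval from limma voom. Blue marks the 40 genes lower in dIWS1 at an adjusted p under 0.05, grey the 21 others, and the dashed line the median of all genes tested at -0.42, which most of the intervals cross.

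At the 2 ends of this order stood genes of different complexes. The lowest 5 with at least 100 control reads were MED18 of the Mediator head, GTF2H3 and TAF6 of TFIIH and TFIID, CDK19 of the kinase module and MED27 of the tail. The highest 5 were CDK7, TAF13, GTF2B, TAF1A and MED31. The upstream regions of the 2 lowest and the 3 highest genes with a matching promoter are printed because they show the range of promoters behind these extremes, from a TATA box to none of the motifs searched. Promoters from RefSeq (GRCh38.p14) could be matched to the start of 45 of the 61 genes, and the 250 bases before the start are given 5′ to 3′ on the gene's strand, with motif matches in capitals. The motifs searched were the TATA box as TATAAA on the sense strand and, on both strands, the CCAAT box, the core of GC boxes as GGGCGG and the core of ETS family sites as CGGAAG, each counted on its own where matches overlap. The regions are chr1:28328790-28329039 (plus strand) for MED18, chr12:123633579-123633828 (plus) for GTF2H3, chr1:88891568-88891817 (minus) for GTF2B, chr1:109076004-109076253 (minus) for TAF13 and chr5:69234545-69234794 (plus) for CDK7.
MED18: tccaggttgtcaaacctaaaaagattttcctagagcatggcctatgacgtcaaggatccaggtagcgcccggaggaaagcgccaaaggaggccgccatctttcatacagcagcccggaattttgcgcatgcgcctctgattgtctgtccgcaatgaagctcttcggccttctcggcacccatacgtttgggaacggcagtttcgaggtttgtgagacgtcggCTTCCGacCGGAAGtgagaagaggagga
GTF2H3: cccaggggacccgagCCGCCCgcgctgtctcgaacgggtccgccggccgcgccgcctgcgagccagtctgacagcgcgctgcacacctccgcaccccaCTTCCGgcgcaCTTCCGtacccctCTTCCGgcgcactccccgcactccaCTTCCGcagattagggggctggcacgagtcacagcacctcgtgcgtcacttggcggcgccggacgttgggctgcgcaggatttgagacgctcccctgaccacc
GTF2B: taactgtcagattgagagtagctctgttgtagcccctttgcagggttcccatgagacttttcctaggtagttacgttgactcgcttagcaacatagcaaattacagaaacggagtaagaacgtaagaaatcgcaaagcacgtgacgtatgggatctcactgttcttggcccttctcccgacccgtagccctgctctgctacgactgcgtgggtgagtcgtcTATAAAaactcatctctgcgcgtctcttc
TAF13: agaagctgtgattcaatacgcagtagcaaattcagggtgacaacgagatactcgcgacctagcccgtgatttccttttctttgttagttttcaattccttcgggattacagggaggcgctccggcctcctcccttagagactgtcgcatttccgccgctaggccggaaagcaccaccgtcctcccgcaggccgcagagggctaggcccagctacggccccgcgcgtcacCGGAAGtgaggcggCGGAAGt
CDK7: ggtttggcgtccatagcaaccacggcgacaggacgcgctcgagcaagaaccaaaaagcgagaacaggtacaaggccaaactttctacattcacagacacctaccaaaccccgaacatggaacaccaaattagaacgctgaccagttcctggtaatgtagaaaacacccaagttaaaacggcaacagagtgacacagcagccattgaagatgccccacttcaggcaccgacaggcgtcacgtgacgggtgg

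In these windows GTF2B carried TATAAA at positions -29 to -24 from its start, MED18 and TAF13 each held 2 matches to CGGAAG between position -28 and the start, GTF2H3 held 4 of them further upstream and 1 match to GGGCGG, and CDK7 held no match to the 4 motifs. Over all 6541 tested genes with a matched promoter, TATAAA was present in 3.16%, CCAAT in 36.6%, GGGCGG in 69.1% and CGGAAG in 31.5%. Among the 45 initiation factor genes TATAAA stood in 2, GTF2B and MED7 (4.44%), CCAAT in 18 (40.0%), GGGCGG in 24 (53.3%) and CGGAAG in 20 (44.4%). Genes with CGGAAG were thus found at both ends, TAF13 among the highest and GTF2H3 and MED18 among the lowest. The median GC content of the upstream windows was 57.2% for these genes and 64.8% for all.

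The Mediator head touches the polymerase and TFIIB. Of its 7 genes 5 fell, where 65.6% of all genes did, and the module median was -0.33. This median was -0.49 in column 1 and -0.18 in column 2. MED18, which with MED20 forms the movable jaw of the head, had 146 reads in the control and 86 and 63 in the dIWS1 columns (chr1:28329040-28335965, GRCh38.p14). Both dIWS1 values lie far below the control. The fold change of -0.90 (95% interval -1.27 to -0.52, adjusted p = 1.98e-05, limma) was the lowest of the 61. In columns 1 and 2 the log2 ratios of MED18 were -0.74 and -1.07. MED20, its partner in the jaw, had 508, 451 and 437 reads and did not pass the test (-0.12, interval -0.37 to 0.14). MED11 and MED22, which bind each other in the head, had log2 fold changes of -0.76 and -0.55. For MED11 this rests on 46, 32 and 20 reads, the fewest of the 61 genes, and its interval runs from -1.32 to -0.20. MED17, the central subunit of the head, had 3168, 2491 and 2635 reads and was not called (-0.23, adjusted p = 0.165, limma). MED8 and MED6 fell by 0.33 and 0.29 on the log2 scale, MED6 with an adjusted p of 0.0481 (limma), close to the threshold. In columns 1 and 2 the log2 ratios were -0.49 and -0.17 for MED8 and -0.41 and -0.18 for MED6, so that column 1 gave most of either fall. For MED11 they were -0.49 and -1.05.

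The middle module links the head to the tail and the kinase module. Of its 8 genes analysed here 3 fell, where 65.6% of all genes did, and the median was -0.24. MED1, the subunit bound by nuclear receptors and GATA factors, had 3320, 2350 and 2542 reads and fell by 0.36 on the log2 scale. MED7 and MED9 fell as well, to 83 and 101 reads from 136 for MED7 and to 511 and 575 from 761 for MED9. The dIWS1 columns of these 3 genes all lay under the control, with log2 ratios in columns 1 and 2 of -0.69 and -0.29 for MED7 and of -0.55 and -0.27 for MED9. Not called were MED19 (-0.26), MED4 (-0.21), MED21 (-0.12), MED10 (-0.10) and MED31 (-0.08). MED21, which pairs with MED7 at the hinge of the module, held 780, 661 and 697 reads, and MED10, a neighbour in the same module, held 620, 555 and 540. For MED31 column 2 stood just above the control after scaling, with 218, 190 and 201 reads before it. MED14, the backbone on which head, middle and tail are assembled, fell by 0.32 on the log2 scale, from 2710 reads to 2056 and 2042 (adjusted p = 0.0454, limma).

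The tail, where many activators dock, had 7 genes in the table. Of these 4 fell, where 65.6% of all genes did, and the median was -0.34. MED27 had 11781 reads in the control and 6897 and 7057 in dIWS1, a fold change of -0.68 with an interval of -0.97 to -0.39. MED15, a target of SREBP and SMAD factors, was the gene with the highest level per length of the 61, at 345 normalized reads per kb of gene span in the control and 239 in dIWS1. It fell by 0.53 on the log2 scale, from 27885 reads to 17684 and 18822. MED16, with 664, 428 and 389 reads, fell by 0.62, and MED29, with 289, 225 and 206, by 0.34. In all of these genes both dIWS1 columns lay below the control. MED28 (-0.27), MED30 (-0.24) and MED23 (-0.18) were not called. MED23, the subunit that receives the MAP kinase target ELK1, had 3396, 2821 and 2863 reads. For MED30 the 2 columns lay far apart, with log2 ratios of -0.42 and -0.05. MED24 and MED25 were not analysed here.

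The kinase module, which can block the contact of Mediator with the polymerase, had a median of -0.48. Of its 5 genes 4 fell, where 65.6% of all genes did. CDK19, one of its alternative kinases, had 3929, 2430 and 2155 reads (chr6:110609978-110815855). The fold change was -0.70 (SE 0.15, adjusted p = 2.32e-05, limma), and both columns lay near each other and far under the control. CDK8, the other kinase, fell by 0.48 on the log2 scale, from 6823 reads to 4658 and 4580. MED13, which tethers the module to Mediator, fell from 22676 reads to 14270 and 15215, and MED12, which activates the kinase, from 686 to 471 and 486, with log2 fold changes of -0.54 and -0.44. CCNC, the cyclin partner of both kinases, had 3363, 2725 and 2847 reads and was not called (-0.19, interval -0.49 to 0.10). MED12L and MED13L, the paralogs, were not analysed here.

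**Figure D2:**
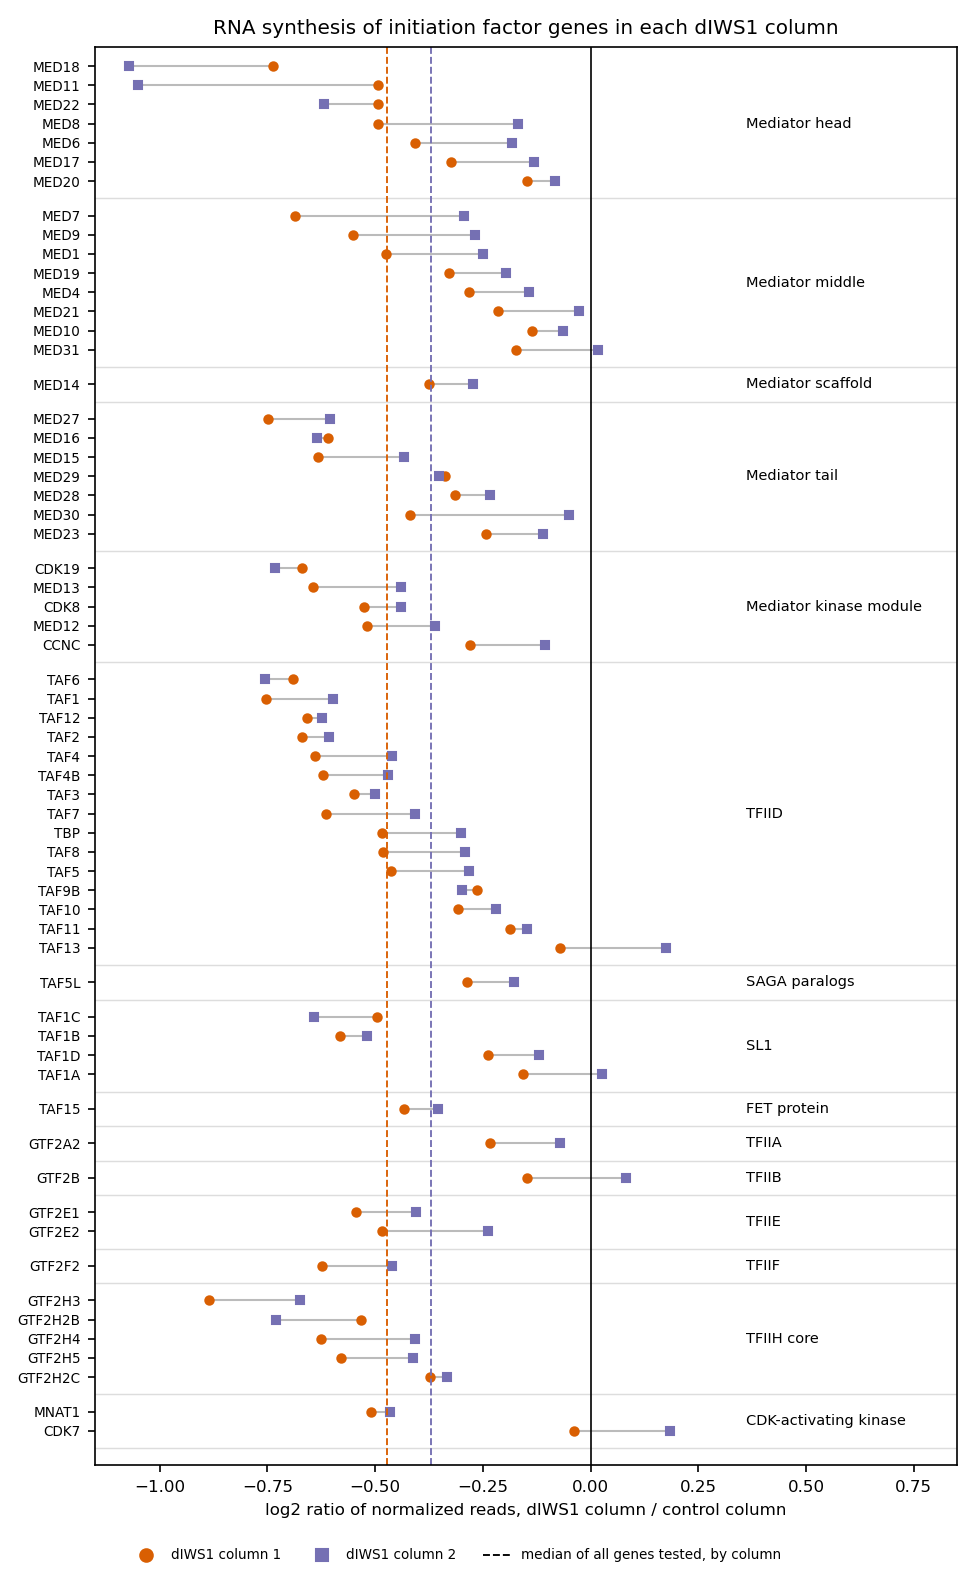
Log2 ratio of normalized reads of dIWS1 column 1 (circles) and column 2 (squares) to the control column (x axis) for each of the 61 genes, grouped by complex. The dashed lines are the medians of all genes tested, -0.47 in column 1 and -0.37 in column 2, and for 5 genes (CDK7, TAF13, GTF2B, TAF1A and MED31) column 2 stands right of 0 and column 1 left of it.

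Among the 15 TFIID genes 11 fell, where 65.6% of all genes did, and the median was -0.51. No module was tested against that share. TBP, which bends the DNA at the TATA box and serves all 3 nuclear polymerases, had 1478 reads in the control and 1040 and 1093 in dIWS1 (chr6:170554369-170572859). Its log2 fold change of -0.39 (interval -0.66 to -0.12, adjusted p = 0.0101, limma) was near the median of all genes. TAF1, the largest subunit, with bromodomains that bind acetylated histones, had 5281, 3081 and 3176 reads and fell by 0.68 on the log2 scale. TAF2, a subunit that contacts the initiator element, fell by 0.64, from 9166 reads to 5665 and 5476. TAF6 fell the most of the TFIID genes, by 0.72 (interval -0.98 to -0.47, adjusted p = 5.14e-07, limma), with 679, 414 and 366 reads. In each of these both dIWS1 columns lay below the control. Log2 ratios in columns 1 and 2 were close for TAF6 (-0.69 and -0.76) and TAF2 (-0.67 and -0.61). They lay further apart for TAF1 (-0.75 and -0.60) and TBP (-0.48 and -0.30).

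Many TAFs pair with each other through histone folds, and the pairs stood at different places in the order. TAF4 and its partner TAF12 fell by 0.55 and 0.64 on the log2 scale, with 1760, 1097 and 1040 reads for TAF12. TAF3, which reads trimethylated H3K4 with its PHD finger, fell by 0.52, and TAF8 by 0.39, whereas TAF10, which can pair with either, was not called (-0.26). Reads of TAF10 were 224, 178 and 175. TAF9B, the partner of TAF6 in some complexes, had 293, 240 and 217 reads and missed the threshold (-0.28, adjusted p = 0.0721, limma). TAF11 and TAF13, which form a pair near TBP, were both not called. TAF11 had 1082, 935 and 889 reads (-0.17), and TAF13 had 428, 401 and 440 (0.05, interval -0.20 to 0.31). TAF13 was below the control in column 1 and above it in column 2 after scaling, with log2 ratios of -0.07 and 0.17. TAF5 and TAF7 fell by 0.37 and 0.51 on the log2 scale. TAF9, TAF1L and TAF7L were not analysed here.

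Some TAF genes serve other complexes. TAF5L, the TAF5 relative in the SAGA coactivator, had 2776, 2238 and 2235 reads and was not called (-0.23). Of the 4 genes of SL1, the TBP complex that starts ribosomal RNA transcription by Pol I, TAF1C and TAF1B fell, by 0.57 and 0.55 on the log2 scale. TAF1D and TAF1A, with fold changes of -0.18 and -0.06, were not called. Of all genes tested, 65.6% fell by the same rule. TAF1A had 1988, 1754 and 1845 reads, with log2 ratios of -0.16 and 0.03, and TAF1D had 3150, 2626 and 2640. TAF15, an RNA-binding protein of the FET family, fell by 0.39, from 8778 reads to 6400 and 6250. TAF6L was not analysed here.

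Of the general factors outside TFIID, 9 of 12 genes fell, where 65.6% of all genes did, and the median was -0.48. GTF2A2, the small subunit of TFIIA, had 1885, 1576 and 1635 reads and was not called (-0.15). GTF2B, which encodes TFIIB, had 4434 reads in the control and 3940 and 4275 in dIWS1 (chr1:88852633-88891567). The dIWS1 columns fell on both sides of the control after scaling, and the fold change was -0.03 with an interval of -0.33 to 0.27. Both TFIIE genes fell, GTF2E1 by 0.47 and GTF2E2 by 0.36 on the log2 scale. In columns 1 and 2 the log2 ratios of GTF2E2 were -0.48 and -0.24. GTF2F2, the small subunit of TFIIF, fell by 0.54, with 10226, 6526 and 6768 reads. GTF2A1, GTF2A1L and GTF2F1 were not analysed here.

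TFIIH is the factor that also repairs DNA. All 5 of its GTF2H genes analysed here fell, with a median of -0.52, where 65.6% of all genes did. The helicase genes of its core are described with the other initiation genes. GTF2H3, which encodes the p34 core subunit, had 2428, 1292 and 1386 reads (chr12:123633829-123662604), and its fold change of -0.78 (interval -1.06 to -0.49, adjusted p = 1.21e-06, limma) was the lowest among the general factors. GTF2H4 fell by 0.52 and GTF2H5, the small subunit mutated in a form of trichothiodystrophy, by 0.50. GTF2H2C and GTF2H2B, with 328, 249 and 237 reads and 259, 176 and 142 reads, are near-identical copies on chromosome 5, the second a transcribed pseudogene. Only uniquely aligned reads were counted by the authors, so the values of both copies are uncertain. GTF2H1, GTF2H2 and GTF2H2D were not analysed here.

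CDK7, the kinase of the CDK-activating module of TFIIH, had 3315 reads in the control and 3174 and 3430 in dIWS1 (chr5:69234795-69277430). Its fold change of 0.07 (interval -0.22 to 0.37) was the highest of the 61 genes, and it was higher in column 2 and slightly lower in column 1 than in the control, with log2 ratios of 0.18 and -0.04. MNAT1, which holds CDK7 and its cyclin together, had 10595, 7321 and 6986 reads and fell by 0.49 on the log2 scale. CCNH, the cyclin, was not analysed here.

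Since nearly all genes lay below the control, the genes were also compared with the median gene of the table. Relative to that median, no initiation factor gene was lower and 2 were higher (limma voom, adjusted p under 0.05), where 4.86% of all genes tested were lower and 2.99% higher. At an unadjusted p under 0.05, 3 were lower (MED18, GTF2H3 and TAF6) and 8 higher (CDK7, TAF13, GTF2B, TAF1A, MED10, MED20, MED21 and MED31). The shares of all genes at this unadjusted threshold were not computed, so these counts cannot be set against the table. The 2 higher genes past the adjusted threshold were TAF13, at 0.47 above the median gene on the log2 scale (adjusted p = 0.00814), and CDK7, at 0.50 (adjusted p = 0.0203). By limma trend no gene was lower, TAF13 kept its call (adjusted p = 0.0306) and CDK7 lost it (adjusted p = 0.118). By sign alone 28 of the 61 lay under the median gene and 33 over it. The 2 columns differed by a shift that all genes share, with a median column difference (column 1 minus column 2) of -0.12 on the log2 scale for all genes tested and -0.14 for these. When each column was set to its own median gene, an alternative added after the data were seen, 7 initiation factor genes lay below it and 15 above it, where 15.1% and 15.3% of all genes did. The median standard error of the 61 genes was 0.083 in this centred fit. It was 0.15 in the spike-in fit, whose errors the test relative to the median gene kept. A gene that did not pass that test is therefore not shown to lie at the median gene. The 7 were GTF2H3, TAF6, CDK19, MED27, TAF1, TAF12 and TAF2, between -0.36 and -0.22 relative to the median gene. MED18, the lowest gene under spike-in scaling, did not pass here (-0.48, adjusted p = 0.0708, limma). The 15 were CDK7, TAF13, GTF2B, TAF1A, MED10, MED20, MED21, GTF2A2, TAF11, MED23, TAF1D, CCNC, MED4, MED17 and TAF5L, between 0.49 and 0.19. For all 22 both columns lay on the same side of their median gene, which their choice by these same columns largely fixed in advance. As shares of the 61, the 7 and the 15 are 11.5% below, under the background of 15.1%, and 24.6% above, over the background of 15.3%. By module, the core of Mediator (head, middle, tail and scaffold) had 6 of 23 genes above and 1 below, TFIID 2 above and 4 below, and the general factors 3 above and 1 below. None of the 15 was among the 40 genes called lower under spike-in scaling, and all of the 7 were. Both lists come from the same reads with only a shared shift between them, so this was largely fixed in advance.

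**Figure D3:**
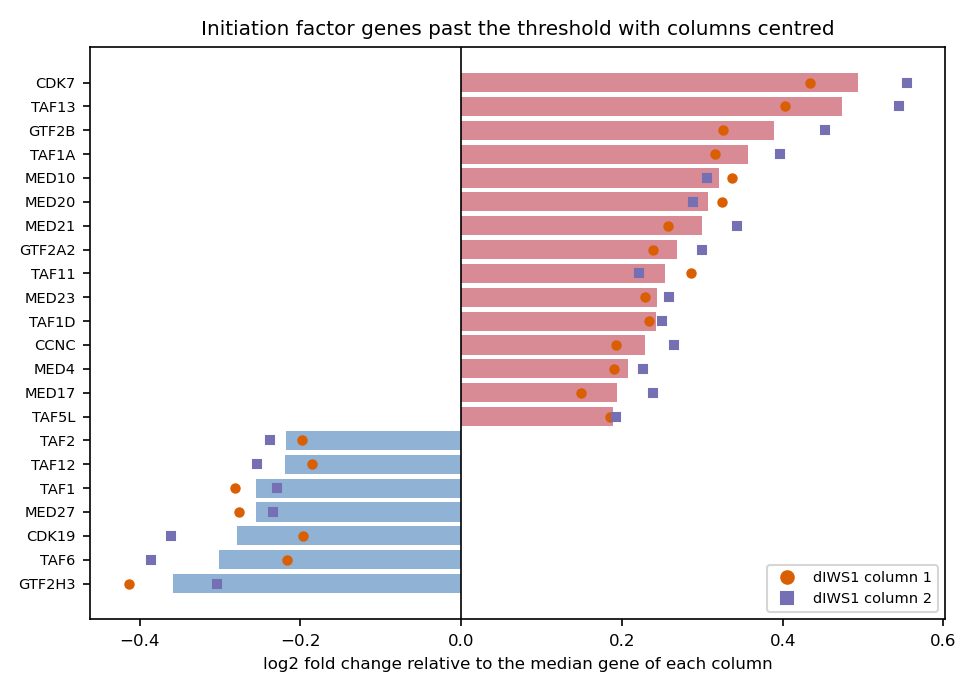
Log2 fold change relative to the median gene of each column (x axis) for the 22 genes past the threshold when each column is centred. Bars are the fitted value, circles column 1 and squares column 2. In every gene both columns lie on the same side of 0, which the choice of genes by these same columns largely fixes.

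Genes whose proteins bind each other did not always share a fold change. The same was not computed for other pairs of genes, so this is a description and not a trait of partners. Over 12 pairs of direct partners, picked from knowledge of the complexes after the values were seen, the difference between partners had a 95% interval that left out 0 in 4. These were MED20 against MED18 (0.78, interval 0.33 to 1.24), CDK7 against MNAT1 (0.56, interval 0.15 to 0.98), CCNC against CDK19 (0.51, interval 0.09 to 0.93) and TAF9B against TAF6 (0.44, interval 0.06 to 0.82), each on the log2 scale and with the first gene higher. The intervals treat the errors of the genes as independent and are not adjusted for the number of pairs. For the pairs TAF4 and TAF12, TAF11 and TAF13, GTF2E1 and GTF2E2, and CDK8 and CCNC the intervals covered 0, from -0.49 to 0.31, -0.15 to 0.59, -0.29 to 0.52 and -0.13 to 0.71 in that order. The other 4 pairs, MED11 with MED22, MED7 with MED21, and TAF10 with TAF8 and with TAF3, covered 0 as well.

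For paralogs, some of which replace each other in a complex, the intervals of the difference covered 0. TAF4B minus TAF4 was 0.00 on the log2 scale, with an interval of -0.41 to 0.41, and TAF4B had 79.5 normalized reads per kb in the control against 35.5 for TAF4. TAF4 had 3269, 2064 and 2164 reads, and TAF4B 13265, 8481 and 8724, so that both fell in both columns. CDK19 minus CDK8 was -0.22 (interval -0.63 to 0.20), at control levels of 18.9 and 44.7 normalized reads per kb. TAF5L minus TAF5 was 0.14 (interval -0.25 to 0.53), with TAF5L at 83.3 and TAF5, with 418, 298 and 313 reads, at 19.6 normalized reads per kb. These intervals also rest on the standard errors of the spike-in fit and are too wide for a difference between genes. None was computed with each column centred, so covering 0 does not show that paralogs changed alike.

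Synthesis per length differed widely over the 61 genes. Control levels ran from 7.33 normalized reads per kb of gene span for GTF2H2B to 345 for MED15, with a median of 47.1, beside 41.3 for all genes tested. The levels of GTF2H2B and its copy GTF2H2C (9.27) are uncertain, because only uniquely aligned reads were counted. The next lowest was CDK19 at 18.9. After MED15 came TAF1D at 276, TAF15 at 230, TAF7 at 193 and MED13 at 183. Log2 fold changes were -0.53, -0.18, -0.39, -0.51 and -0.54 for MED15, TAF1D, TAF15, TAF7 and MED13. Thus 4 of these 5 fell, where 65.6% of all genes did, and TAF1D was not called. Across the 61 genes the Spearman correlation of fold change with control level per kb was 0.28, and it was 0.15 across all genes tested. Both measures hold the same control reads, and genes are not independent replicates.

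Gene length was a property that the choice of genes did not use. The 15 genes in the longest quartile of the table, with spans over 64.7 kb, all fell, and their median was -0.54, beside 77.6% called lower and a median of -0.49 for all genes of that quartile. They include MNAT1, the longest at 235205 bp, MED27, CDK19, TAF3, GTF2F2, TAF4B, TAF1, CDK8 and MED13. In the quartile from 28.2 to 64.7 kb, 9 of 15 fell (median -0.36, all genes 57.4% and -0.35). Between 11.2 and 28.2 kb there were 7 of 16 (median -0.26, all genes 62.9% and -0.38), and in the shortest quartile 9 of 15 (median -0.34, all genes 64.7% and -0.47). In the shortest quartile the initiation factor genes and all genes had nearly the same median in column 1 (-0.49 and -0.50) and differed in column 2 (-0.30 and -0.44). No test of these differences was made. The Spearman correlation of fold change with length was -0.27 across the 61 genes and -0.02 across all genes tested. With the GC content of the gene span it was -0.30 and -0.34. All 7 genes in the quartile with the highest GC content fell, where 80.3% of all genes of that quartile did.

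**Figure D4:**
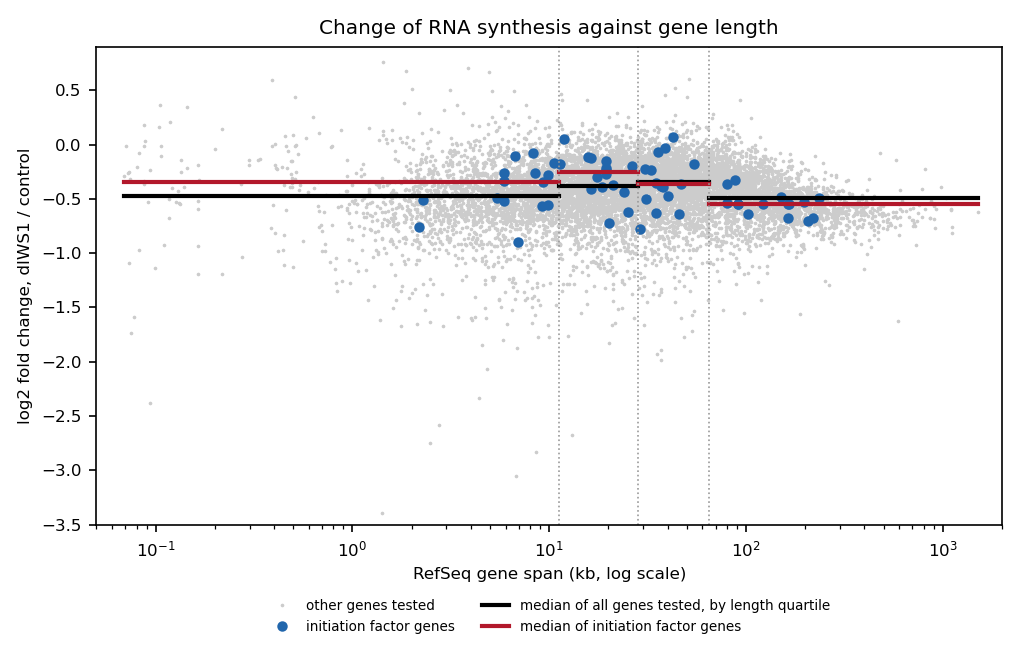
Log2 fold change (dIWS1/control, y axis) against RefSeq gene span in kb (x axis, log scale) for the 61 genes (blue) and the other genes tested (grey). Dotted lines part the quartiles of gene length, and the horizontal lines are medians of all genes (black) and of the initiation factor genes (red), which are -0.49 and -0.54 among the longest genes and -0.47 and -0.34 among the shortest.

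Of the 61 genes, 5 pairs lay within 500 kb of each other on a chromosome. TAF1D and MED17 were 42.8 kb apart on chromosome 11 and had fold changes of -0.18 and -0.23. CDK7 and GTF2H2C, both genes of TFIIH, were 283 kb apart on chromosome 5 and had 0.07 and -0.35. On chromosome 6 MED20 and TAF8 had -0.12 and -0.39 over a gap of 129 kb. MED18 and TAF12 on chromosome 1 both fell, by 0.90 and 0.64 on the log2 scale, as did MED12 and TAF1 on the X chromosome, by 0.44 and 0.68. Neighbours thus showed both like and unlike values.

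Other genes of transcription initiation were read from lists for the TFIIH helicases, relatives and regulators of TBP, SAGA, SNAPc and the initiation factors of Pol I and Pol III. Of 31 of these in the test 23 fell, where 65.6% of all genes did, and ENY2 was the only gene above 0 without passing the test. Their median was -0.39, as for the 61 genes. Of the TFIIH helicases, ERCC2 fell by 0.50 on the log2 scale, with 516, 343 and 347 reads, and ERCC3, with 1693, 1331 and 1296 reads, was not called (-0.29, adjusted p = 0.0635, limma). Of the NC2 repressor of TBP, DRAP1 fell by 0.62, and DR1, with 2214, 1988 and 2112 reads, was not called (-0.03). BTAF1, the ATPase that removes TBP from DNA, fell by 0.42, and TBPL1, a TBP relative, by 0.40. SAGA had 10 of 11 genes lower, with a median of -0.36, where 65.6% of all genes were lower with a median of -0.42, and 3 of the 11 lay under the median gene. The other was ENY2, shared with the mRNA export machinery, which had 911, 927 and 983 reads and a fold change of 0.15, and it lay 0.57 above the median gene (adjusted p = 0.00091, limma). For Pol III 7 of 9 genes fell, where 65.6% of all genes did. Of the 7, GTF3C1 fell by 0.69, BDP1 by 0.68 and BRF1 by 0.63 on the log2 scale. RRN3, which recruits Pol I to SL1, had 2470, 2052 and 2272 reads and was not called (-0.11). In SNAPc, the complex of small nuclear RNA promoters, SNAPC2 and SNAPC4 fell by 0.78 and 0.61, and SNAPC1 and SNAPC3 were not called.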

How the data were processed

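Per the methods of the study, TT-seq reads were aligned with STAR 2.6.0 to GRCh38 with spike-in sequences, unique alignments were counted per RefSeq gene with respect to strand, overlapping genes were removed and genes with low coverage left out. The values used are the authors' deposited signal per gene, DESeq2's mean over 4 library columns of counts divided by spike-in size factors. The authors' log2 fold changes served only to place whole reads behind each mean and to tell which column was the control. Neither they nor the authors' standard errors and p-values are reported. The design had foreseen this kind of table.

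Reads were recovered from the smallest steps between means. Of 10136 genes with a mean above 0, 10135 had 1 solution, and the split was tested on simulated data. The 9916 genes whose mean reached 10 normalized counts were fitted with limma 3.58.1 voom (R 4.3.3), 1 control column against 2 dIWS1 columns, with the spike-in size factors as library sizes, no covariate, Benjamini-Hochberg adjustment over all genes and a threshold of 0.05. The spread was pooled over genes from the dIWS1 pair, and p-values measure only that spread. Log2 ratios of single columns used a pseudocount of 0.5. Spans and promoters came from RefSeq (GRCh38.p14). The depth was 29697189, 20599922 and 20807156 reads in genes, and the median standard error of the log2 fold change was 0.15 for the 61 genes.

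The genes and lists were chosen with earlier results of these data known. Named in full were the 5 lowest and 5 highest genes with at least 100 control reads, those past the threshold relative to the median gene, those not called lower, TBP and the paralogs. The alternatives were other scalings, a log2 limma trend fit, the control entered 2 times, other thresholds, filters and pseudocounts, and each dIWS1 column alone. Tables and plots were made in Python 3.11.15 (pandas 2.3.3, numpy 2.4.6, matplotlib 3.10.9). A marker gene of the cell line on the planned list is not reported here.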

Additional observations from a re-analysis of the deposited data

How the results depend on the processing

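Under spike-in scaling 40 genes were lower. This became 22 with a minimum change of 0.5 on the log2 scale. It was 33 under limma trend, 47 with the control entered 2 times, 27 at an adjusted p under 0.01 and 43 under 0.1. Entering the control 2 times copies 1 column and adds no replicate, so counts from that fit overstate the evidence. Beyond the main fit, shares of all genes were computed only for recentring on the median gene and for centring each column, at a threshold of 0.05. The other counts given here cannot be set against all genes. Scaled by total reads in genes, 7 were lower and 15 higher, and recentred on the median gene 0 were lower and 2 higher (TAF13 and CDK7). Both scalings by construction take out most of the shift shared by all genes, and the median of the 61 turned from -0.39 to 0.050 and 0.033. With 1 dIWS1 column left it was between -0.48 and -0.30, with no test, and that of the Mediator head between -0.49 and -0.18. Among the genes called lower, 6 moved by over 1.5 times with 1 column: MED7, MED9, MED8, MED6 and GTF2E2, smaller in column 2, and MED11, smaller in column 1. Genes below the median gene numbered 0, or 5 with the control entered 2 times and 7 with each column centred. Those above it numbered 2, or 1 under limma trend and at an adjusted p under 0.01, 6 with the control entered 2 times and 15 with each column centred. With each column centred the median standard error of the 61 genes was 0.083, against 0.15 in the main fit. The cause of these last shifts was not tested.

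Of the genes named by rule and the complexes, the following turned positive, with the value recentred on the median gene first and that scaled by total reads second. Medians were Mediator head 0.089 and 0.11, Mediator middle 0.18 and 0.20, Mediator tail 0.079 and 0.096, SL1 0.059 and 0.076, TFIIE 0.0061 and 0.023 and, for CDK-activating kinase, 0.22 and 0.23. Single genes were CCNC 0.23 and 0.25, GTF2A2 0.27 and 0.29, GTF2B 0.39 and 0.41, GTF2H2C 0.070 and 0.088, MED10 0.32 and 0.34, MED17 0.20 and 0.21, MED19 0.16 and 0.18, MED20 0.31 and 0.33, MED21 0.30 and 0.32, MED23 0.25 and 0.26, MED28 0.15 and 0.17, MED30 0.19 and 0.21, MED31 0.34 and 0.36, MED4 0.21 and 0.23, TAF10 0.16 and 0.18, TAF11 0.26 and 0.27, TAF1A 0.36 and 0.38, TAF1D 0.24 and 0.26, TAF5 0.049 and 0.068, TAF5L 0.19 and 0.21, TAF9B 0.14 and 0.16, TBP 0.033 and 0.050, while MED12 turned with total reads alone (0.0011). A further 9 genes called lower were also positive when recentred: MED6 0.13, MED14 0.10, MED8 0.089, MED29 0.079, GTF2E2 0.062, MED1 0.062, TAF8 0.038, TAF15 0.030 and MED9 0.013.

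No paired analysis was possible because the recovered columns carry no replicate number and the control is a single column. Depth limits MED11 (46 control reads) and MED7 (136) most, with the widest intervals beside MED18 (146).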
